A study of Mus musculus with 9 samples.

Results

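The receptors that place lymphocytes in the compartments of the spleen, or let them leave it, were followed by their transcripts and, where an antibody was on the panel, by their surface protein. They were Cxcr5, Ccr7, Cxcr4, Gpr183, S1pr1, Ccr6, Cxcr3 and Cnr2, taken by symbol from the gene expression features, 8 of 55385 genes. The antibodies to their proteins were 5 of the 191 on the panel. The libraries were CITE-seq of mouse spleen, in which mRNA and antibody-derived oligonucleotide tags are read from the same droplet. Total splenocytes sorted with DAPI, a DNA dye, came from mice with R594C on both alleles (R594C/R594C), from mice with 1 mutant allele (R594C/+) and from wild-type (WT) mice. R594C is an amino acid change in IRE1, the endoplasmic reticulum stress sensor encoded by Ern1, whose RNase domain splices Xbp1 mRNA. The study asked whether the change alters the immune cell compartment. Age and the way the allele was made are not given in the labels used here.

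Each genotype was 1 capture, with hashtag antibodies against CD45 and MHC class I marking 2 R594C/R594C, 4 R594C/+ and 4 WT replicates. Genotype, capture and antibody library therefore cannot be told apart. The labels do not say how the cells were stained, nor that the replicates were separate animals. By their sex-linked transcripts the replicates were 1 female and 1 male for R594C/R594C, 4 females for R594C/+, and 1 female and 3 males for WT. After doublets were removed 40987 cells remained, 13954 R594C/R594C, 14706 R594C/+ and 12327 WT, with 13095352 to 27093056 RNA UMIs (unique molecules counted) per replicate. The captures shared 68 to 89 cell barcodes per pair. The receptors were left out of the clustering, and 22 classes with 39338 cells were described: 22855 cells of B classes, 887 plasma cell-like, 13271 of T classes, 1043 NK-like and 1282 of dendritic classes. A class was named "-like" from markers, and 5 T-lineage clusters that did not earn a name keep their numbers. Cluster 13 was led by Gzmk, Ccl5 and Ifng, cluster 19 by Fst and Ptprk, cluster 21 by the gamma delta chain genes Trdc and Trgc4, cluster 23 by Cxcr6, Il4 and Zbtb16, and cluster 28 by Il22 and Il17a.

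As background, B cells enter follicles along CXCL13 through CXCR5 and are held at the follicle's outer rim by GPR183, which reads oxysterols. CCR7 draws naive T cells and activated dendritic cells into the T cell zone, and the balance of CXCR5 and CCR7 sets where an activated B cell stands. S1PR1 reads sphingosine 1-phosphate in blood and lymph and takes lymphocytes out of the organ, while CXCR4 reads CXCL12 and retains plasma cells. CCR6 marks B cell subsets and IL-17-producing T cells, CXCR3 marks effector and memory T cells, and CNR2, the cannabinoid receptor of immune cells, helps hold marginal zone B cells in place.

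The proteins of CXCR5, CCR7, CXCR4, CCR6 and CXCR3 were read through the tags below, and the panel had no antibody to the other 3 receptors. The tags are shown because every protein value that follows is a count of these barcodes. The capitals mark the whole barcode of 15 bases, which is a synthetic sequence and no part of the gene.
CD185 (CXCR5): ACGTAGTCACCTAGT
CD197 (CCR7): TTATTAACAGCCCAC
CXCR4: GTCGTGGTGTTGTTC
CD196 (CCR6): CTCTCTGCATTCCTC
CD183 (CXCR3): GTTCACGCCGTGTTA
The 5 tags differ from each other at 8 to 14 of the 15 positions, and each differs from every other tag of the panel at 5 or more positions.

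Levels below are UMI counts of the gene scaled to all RNA UMIs of the class (CPM) in each replicate, given as the lowest, the median and the highest of the 10 replicates unless another number is stated. Replicates with under 10 cells of a class were left out, so cluster 19 and the activated migratory dendritic-like cells had 9 replicates, and cluster 28 and the plasmacytoid dendritic-like cells had 6. The plasmacytoid replicates were 2 R594C/R594C, 4 R594C/+ and 0 WT. Cluster 28 kept all R594C/+ replicates, R594C/R594C replicate 2 and WT replicate 2. Neighbours in the order of mean level were compared by a two-sided exact sign-flip permutation test over replicates on log2(CPM + 1), adjusted over 168 neighbour pairs, and 18 pairs differed. A share of cells with a transcript is given after each cell was thinned to 1500 UMIs, since the median depth ran from 2492 UMIs in follicular-like B cells to 17602 in plasma cell-like cells. On that scale 0 of the 168 pairs differed, 19 of them with an unadjusted p under 0.05. The least p this exact test can give with 10 replicates, 0.00195, came there to 0.055 once adjusted. Naive CD4 above naive CD8 T-like cells for S1pr1 reached it, higher in 10 of 10 replicates. The 0 therefore cannot say that the order was lost on thinned shares. The rank correlation of the classes between the scales was 0.91 to 0.99. Free RNA gives some UMIs in any droplet, so a share is read against that of a class that should lack the gene.

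**Figure D1:**
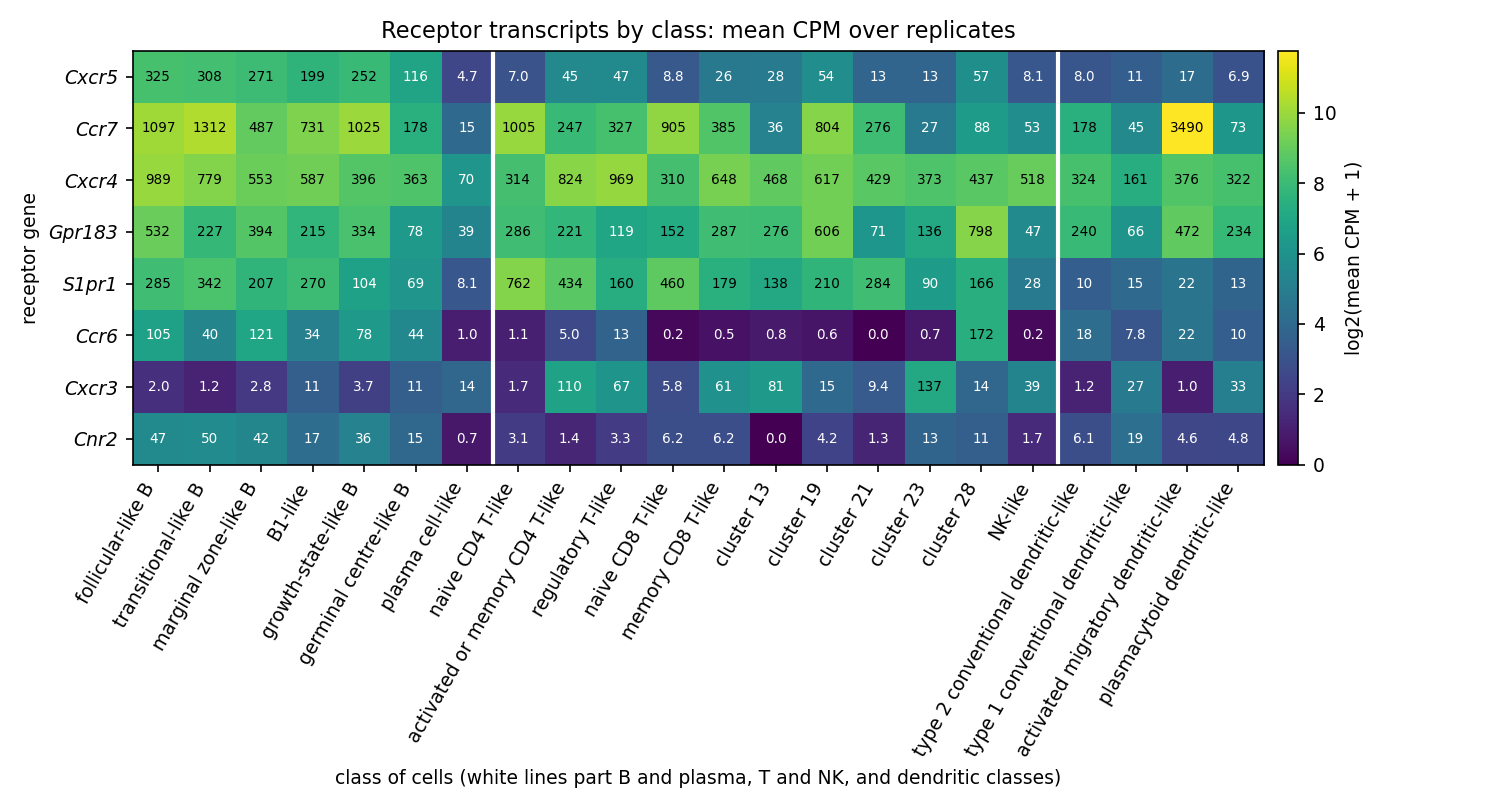
Mean CPM of each receptor transcript (rows) in the 22 classes (columns), over the replicates of a class. The colour is log2(mean CPM + 1), the numbers are the means, and white lines part B and plasma, T and NK, and dendritic classes. Ccr7 in activated migratory dendritic-like cells, at 3490 CPM, is the brightest field.

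Cxcr5 (ENSMUSG00000047880), the CXCL13 receptor of follicles, lies on chromosome 9 at 44511787 to 44526444 (mm10, as are all positions here). It was at 260, 331 and 361 CPM in follicular-like B cells. Transitional-like B cells stood beside them at 279, 305 and 346 CPM, and marginal zone-like B cells at 225, 281 and 294 CPM. These 3 neighbours did not differ in order beyond their spread, while growth-state-like B cells, a cluster led by Il4i1, Mir155hg, Nop16 and Srm, stood above B1-like cells and those above germinal centre-like cells. Regulatory T-like cells held 22.2, 49.75 and 80.1 CPM and activated or memory CD4 T-like cells 34.5, 43.3 and 62.8 CPM. Naive CD4 T-like cells were at 3.96, 7.61 and 9.15 CPM and did not overlap either. After thinning, 37.3% of follicular-like cells had a Cxcr5 UMI (52.9% before), and 1.24% of NK-like cells, which should lack it. The thinned shares of 6.35% in regulatory and 6.18% in activated or memory CD4 T-like cells were above that background, and the 1.17% of naive CD4 T-like cells was not.

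Gpr183 (ENSMUSG00000051212, chromosome 14, 121952331 to 121965193), the oxysterol receptor also called EBI2, had its highest mean in cluster 28, the cells with Il22 and Il17a, at 631, 811 and 1012 CPM. By thinned share cluster 19 led instead, with 54.7% against 47.8% in cluster 28. Among B cells it was at 420, 549 and 606 CPM in follicular-like cells and at 306, 407 and 474 CPM in marginal zone-like cells. Transitional-like cells, at 168, 217 and 294 CPM, overlapped with neither. Activated migratory dendritic-like cells had 187, 468 and 897 CPM over 9 replicates. Regulatory T-like cells had 73.0, 114 and 179 CPM, and NK-like cells 24.9, 38.7 and 96.9 CPM.

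Ccr7 (ENSMUSG00000037944, chromosome 11, 99144199 to 99155077), the receptor for CCL19 and CCL21, was at 2255, 3066 and 5695 CPM in activated migratory dendritic-like cells, above every replicate of all other classes. Transitional-like B cells followed at 1166, 1295 and 1487 CPM, and follicular-like B cells at 944, 1111 and 1184 CPM. In this order each class differed from the next. Naive CD4 T-like cells, with 913, 1012 and 1179 CPM, overlapped with the follicular-like cells and stood above naive CD8 T-like cells at 837, 878 and 1021 CPM. Activated or memory CD4 T-like cells had 156, 242 and 385 CPM, and regulatory T-like cells held 151, 367 and 425 CPM. Marginal zone-like B cells were at 366, 500 and 560 CPM, with no replicate in the follicular-like range. Type 1 conventional dendritic-like cells had 10.9, 15.9 and 223 CPM, and plasma cell-like cells 4.36, 13.3 and 34.4 CPM.

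S1pr1 (ENSMUSG00000045092, chromosome 3, 115710433 to 115715055), the egress receptor, was highest in naive CD4 T-like cells at 652, 768 and 874 CPM. Naive CD8 T-like cells had 331, 451 and 570 CPM and activated or memory CD4 T-like cells 379, 418 and 553 CPM. The naive CD4 class differed from its neighbour, and the other 2 T classes did not differ from each other. Among B cells transitional-like cells were at 277, 339 and 400 CPM, above follicular-like cells at 253, 283 and 310.5 CPM. Regulatory T-like cells spread from 92.1 to 265 CPM around a median of 165. NK-like cells had 3.68, 32.5 and 47.8 CPM, with a thinned share of 3.53% against 64.4% in naive CD4 T-like cells. In plasma cell-like cells the gene was at 2.35, 6.76 and 17.1 CPM.

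Cxcr4 (ENSMUSG00000045382, chromosome 1, 128588199 to 128592299), the CXCL12 receptor, had a mean of 100 CPM or more in 21 of the 22 classes. Follicular-like B cells had 685, 1042 and 1122 CPM and regulatory T-like cells 785, 946 and 1205 CPM, which did not differ. Naive CD4 T-like cells, at 238, 311 and 408 CPM, overlapped with neither. Plasma cell-like cells had the lowest level, 42.3, 67.0 and 95.9 CPM, and immunoglobulin transcripts took 63.4% of their UMIs. Without immunoglobulin genes in the total, an alternative added after the values were seen, plasma cell-like cells ranked 21 of 22 for Cxcr4. For Cxcr5, Ccr7, Gpr183 and S1pr1 they ranked last on CPM, and 16, 20, 18 and 19 of 22 without those genes.

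Ccr6 (ENSMUSG00000040899, chromosome 17, 8236041 to 8258519), the CCL20 receptor, was at 122, 167 and 211 CPM in cluster 28, the cells with Il22 and Il17a. Marginal zone-like B cells followed with 94.7, 116 and 155 CPM and follicular-like B cells with 80.2, 105 and 128 CPM. Transitional-like cells had 23.99, 39.4 and 54.8 CPM, below every follicular-like replicate. B1-like cells ranged from 13.2 to 72.8 CPM. The gene was under 10 CPM in 11 of the 22 classes: plasma cell-like and type 1 conventional dendritic-like cells and every other T and NK class except regulatory T-like cells, which had 0, 13.7 and 28.2 CPM. Thinned shares were 25.95% in cluster 28, 14.6% in marginal zone-like and 12.8% in follicular-like cells, against 0.0826% in NK-like cells.

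Cxcr3 (ENSMUSG00000050232, X chromosome, 101731535 to 101734147), the receptor for CXCL9, CXCL10 and CXCL11, was at 27.2, 136 and 239 CPM in cluster 23, led by Cxcr6 and Il4. Activated or memory CD4 T-like cells had 80.7, 109 and 142 CPM, memory CD8 T-like cells 45.1, 57.9 and 98.2 CPM, and regulatory T-like cells 46.5, 56.0 and 101 CPM. Memory CD8 T-like cells stood above NK-like cells, which had 24.3, 34.1 and 80.8 CPM. Plasma cell-like cells held 6.21, 11.98 and 30.5 CPM, all above the highest follicular-like replicate of 5.07 CPM. Their thinned share was 2.77%, against 0.234% in follicular-like B cells.

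Cnr2 (ENSMUSG00000062585, chromosome 4, 135895189 to 135920219), the cannabinoid receptor of immune cells, was at 40.1, 51.1 and 62.8 CPM in transitional-like, at 40.7, 47.5 and 51.7 CPM in follicular-like and at 31.7, 40.15 and 54.7 CPM in marginal zone-like cells. The 3 ranges overlapped and no neighbours among them differed. B1-like cells had 9.69, 15.03 and 32.6 CPM. Thinned shares were 8.05% in transitional-like and 6.62% in follicular-like cells, against 0.127% in NK-like cells. Outside the 22 classes, neutrophil-like cells averaged 49.4 ± 44.5 CPM (SD, n = 10), a spread near the mean itself.

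Over the 22 class means, the member genes most alike in log2(CPM + 1) were Cxcr5 and Cnr2 (Pearson's r 0.74) and Cxcr5 and Ccr6 (0.70), and the least alike were Ccr7 and Cxcr3 (-0.60). Among 9387 genes at 20 CPM or more in at least 1 class, the 3 most like each receptor over the same 22 points were as follows. For Cxcr5 these were Gm43010 (0.90), Camk2d (0.90) and Prxl2a (0.88), and for Ccr7 Tlr1 (0.85), Gm47615 (0.81) and Plcl2 (0.81). For Cxcr4 they were Polr2a (0.90), Cdc37l1 (0.90) and Zfp869 (0.89), and for Gpr183 Bahd1 (0.71), Hook2 (0.70) and Ms4a4c (0.70). For S1pr1 they were Tgfbr2 (0.89), Add3 (0.89) and Trib2 (0.88), and for Ccr6 Serpinb1a (0.92), Blk (0.88) and Pxdc1 (0.86). For Cxcr3 they were Itgal (0.77), Ddx43 (0.76) and Gm49751 (0.75), and for Cnr2 Pax5 (0.89), Fcer2a (0.87) and Gm9706 (0.87). The points share libraries, depth and the clustering, so these values are descriptions with no test.

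Receptor transcripts were then compared between related classes with edgeR's quasi-likelihood test on summed UMIs, each replicate a block, adjusted over all genes tested. The classes were drawn from other genes of the same cells, so these p-values measure how steady a difference was over the 10 replicates. Of 69 tests 61 passed at 0.05, 17 higher and 44 lower. Log2 folds are given with their standard error.

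As a share of RNA UMIs, marginal zone-like B cells held less of most homing receptors than follicular-like B cells and more Ccr6. Their median depth was 4745 UMIs per cell, against 2492. Before thinning, more marginal zone-like cells had a UMI of Cxcr5 (67.8% against 52.9%), Gpr183 (66.5% against 59.0%) or S1pr1 (53.7% against 46.4%). Fewer had one of Ccr7 (75.7% against 83.1%), and for Cxcr4 the shares were 81.8% and 82.4%. Of the 7 receptors tested 6 passed, where 49.7% of all genes did. Ccr7 was lower by a log2 fold of -1.11 ± 0.03 (adjusted p = 9.5e-63), Cxcr4 by -0.77 ± 0.03, S1pr1 by -0.38 ± 0.04, Gpr183 by -0.36 ± 0.03 and Cxcr5 by -0.19 ± 0.03. Ccr6 was higher by 0.27 ± 0.06 (adjusted p = 5.1e-05). Cnr2, at -0.10 ± 0.07, did not pass (adjusted p = 0.27), though scaled to total counts it did at -0.17 (adjusted p = 0.046).

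Transitional-like against follicular-like B cells, 6 of 7 receptors passed, where 33.4% of all genes did. Ccr6 (-1.48 ± 0.08), Gpr183 (-1.33 ± 0.06), Cxcr4 (-0.45 ± 0.03) and Cxcr5 (-0.19 ± 0.04) were lower. Ccr7 (0.14 ± 0.03) and S1pr1 (0.16 ± 0.04) were higher. The Cxcr5 call was lost when scaled to total counts, at -0.08 (adjusted p = 0.12), and in WT replicates alone, at -0.18 (adjusted p = 0.072). The S1pr1 call was lost in WT replicates alone, at 0.12 (adjusted p = 0.30). B1-like against follicular-like cells, 6 of 7 passed, all lower, where 54.0% of all genes passed. The lowest were Ccr6 (-1.69 ± 0.19), Cnr2 (-1.52 ± 0.12) and Gpr183 (-1.33 ± 0.06), and S1pr1, at -0.07 ± 0.05, did not pass (adjusted p = 0.23).

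Plasma cell-like cells had less of 7 receptors than follicular-like B cells and more Cxcr3, so all 8 passed, where 75.3% of all genes did. The lower ones ran from Ccr6 (-5.52 ± 0.21), Ccr7 (-4.77 ± 0.19) and Cxcr5 (-4.63 ± 0.11) to Gpr183 (-2.37 ± 0.22) and Cxcr4 (-2.36 ± 0.08). Cxcr3 was higher by 4.35 ± 0.41 (adjusted p = 7.2e-07). Leaving the immunoglobulin genes out of the counts kept the direction of all 8.

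In the activated, regulatory and memory T classes Ccr7 and S1pr1 were lower, and Cxcr3, Cxcr5 and Cxcr4 higher, than in the naive classes. Activated or memory against naive CD4 T-like cells, 6 of 6 receptors passed, where 50.5% of all genes did. Cxcr3 (5.95 ± 0.21), Cxcr5 (2.46 ± 0.19) and Cxcr4 (1.14 ± 0.06) were higher, and Ccr7 (-2.22 ± 0.12), S1pr1 (-1.01 ± 0.05) and Gpr183 (-0.61 ± 0.07) lower. Regulatory against naive CD4 T-like cells, 6 of 6 passed in the same directions, where 52.0% of all genes passed, with S1pr1 at -2.49 ± 0.10. Memory against naive CD8 T-like cells, 6 of 6 passed, where 36.1% of all genes did, with Cxcr3 at 3.56 ± 0.16, Cxcr5 at 1.88 ± 0.18, Ccr7 at -1.20 ± 0.05 and S1pr1 at -1.34 ± 0.05. Gpr183 was higher there, at 0.90 ± 0.06, and lower in the 2 CD4 comparisons. The difference between those comparisons was not tested.

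NK-like against memory CD8 T-like cells, 6 of 6 receptors passed and were lower, where 46.8% of all genes passed. The largest were Ccr7 (-3.07 ± 0.09), Gpr183 (-2.91 ± 0.14) and S1pr1 (-2.89 ± 0.15). Cxcr4, at -0.59 ± 0.14, did not pass when scaled to total counts (-0.32, adjusted p = 0.086) or in WT replicates alone (-0.38, adjusted p = 0.24). Naive CD4 T-like against follicular-like B cells, 6 of 7 passed, where 65.7% of all genes did, with Ccr6 (-6.34 ± 0.17) and Cxcr5 (-5.50 ± 0.09) lower and S1pr1 (1.497 ± 0.04) higher. Ccr7, at -0.04 ± 0.04, did not pass (adjusted p = 0.37), though scaled to total counts it was lower at -0.13 (adjusted p = 0.00042).

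Among dendritic classes Ccr7, Gpr183 and Cxcr4 were tested. Activated migratory against type 2 conventional dendritic-like cells, 2 of 3 passed, where 38.1% of all genes did, with Ccr7 higher by 4.52 ± 0.28 (adjusted p = 9.9e-07) and Gpr183 by 1.12 ± 0.21. Cxcr4 was at 0.34 ± 0.14 (adjusted p = 0.059), and passed without WT replicate 2 (0.42, adjusted p = 0.016) and with immunoglobulin genes left out (0.35, adjusted p = 0.049). Type 1 against type 2 conventional dendritic-like cells, 3 of 3 passed and were lower, where 49.3% of all genes passed. Of these, Ccr7 (-2.16 ± 0.52) and Gpr183 (-1.80 ± 0.30) did not pass in WT replicates alone, at -0.74 (adjusted p = 0.57) and -1.11 (adjusted p = 0.13). Plasmacytoid against type 2 conventional dendritic-like cells, 0 of 3 passed by edgeR, 2 of them with an unadjusted p under 0.05, where 45.8% of all genes passed. This comparison held no WT replicate. Ccr7 was at -1.60 ± 0.53 (adjusted p = 0.055). It passed as lower by DESeq2 (-1.83, adjusted p = 0.00043), with no filter on low counts (-1.77, adjusted p = 0.00010), and without R594C/R594C replicate 1 (0.015) or R594C/+ replicate 4 (0.0036). Gpr183 was at -0.34 ± 0.15 (adjusted p = 0.053). It passed as lower with no filter on low counts (-0.53, adjusted p = 0.0020), with scored doublets kept (-0.36, adjusted p = 0.029), and without R594C/+ replicate 2 (0.049) or 4 (0.0061).

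Fixed lists of other genes of the same machinery moved in both directions. Among 16 migration and adhesion genes, 5 were higher and 10 lower in marginal zone-like than in follicular-like B cells, where 49.7% of all genes passed. The list median was -0.12, and the median over all genes was -0.0038. Those called included Itgb1 (0.95), the beta chain of several integrins, Itgb7 (-1.55), the beta chain of gut-homing integrins, and Icam2 (-1.15), an adhesion ligand of leukocyte integrins. Of 14 egress regulators tested, 2 were higher and 8 lower, with Rgs10 (3.63 ± 0.10), a regulator of G protein signalling, and Klf2 (-0.99 ± 0.06), a transcription factor that drives S1pr1, as examples. Of 7 lipid receptors 2 were higher and 3 lower, among them S1pr3 (3.68 ± 0.10), a further sphingosine 1-phosphate receptor, and S1pr4 (-1.94). In activated or memory against naive CD4 T-like cells, 4 of 13 egress regulators were higher and 3 lower, where 50.5% of all genes passed. Among the higher ones were Rgs1 (2.46) and Cd69 (0.92), whose protein takes S1PR1 off the surface. There 7 of 16 adhesion genes were higher and 5 lower, with Itgb1 (4.71) and Itga4 (2.08), an integrin alpha chain, among the higher ones.

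In NK-like against memory CD8 T-like cells 2 of 13 egress regulators were higher and 8 lower, where 46.8% of all genes passed. Rgs1 (1.95) was higher and Rgs10 (-4.04) lower. Of the 6 lipid receptors 3 were higher and 3 lower, with S1pr5 (3.13), the sphingosine 1-phosphate receptor that takes NK cells out of tissue, the highest. In memory against naive CD8 T-like cells, of other chemokine receptors, Cxcr6 (0.47) was higher and Ccr9 (-5.61), the receptor of the gut chemokine CCL25, was lower. Plasma cell-like against follicular-like B cells had 6 of 16 adhesion genes higher and 10 lower, where 75.3% of all genes passed. Selplg (2.13), the P-selectin ligand, was among the higher ones and Coro1a (-2.05), an actin-binding protein, among the lower ones.

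The antibody tags gave a second readout, which the clustering did not use. Tag UMIs per cell are shown beside the mean of 10 isotype control antibodies, which bind no known target, in the same cells. CD183, the antibody to CXCR3, stood highest over the controls in memory CD8 T-like cells, at 1.98 ± 0.73 UMIs per cell (SD, n = 10) and 8.63 times the isotype mean. Plasma cell-like cells had 1.53 ± 0.53 UMIs per cell (5.61 times), activated or memory CD4 T-like cells 1.17 ± 0.46 (4.44 times) and follicular-like B cells 0.411 ± 0.22 (1.58 times). The tag of CXCR4 had its highest level in plasma cell-like cells, at 0.559 ± 0.11 UMIs per cell and 2.00 times the isotype mean. Regulatory T-like cells had 0.320 ± 0.091 (1.21 times) and follicular-like B cells 0.120 ± 0.049 (0.444 times). The Cxcr4 transcript was lowest in plasma cell-like cells as CPM, a share of RNA, at a median depth of 17602 UMIs per cell. Before thinning 52.6% of them had a Cxcr4 UMI. That share was 48.5% in activated migratory dendritic-like, 54.1% in naive CD4 T-like and 82.4% in follicular-like cells.

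CD196, the antibody to CCR6, was at 0.404 ± 0.12 UMIs per cell in marginal zone-like (1.21 times the isotype mean), 0.361 ± 0.093 in follicular-like (1.41 times) and 0.226 ± 0.082 in transitional-like B cells (0.971 times). Naive CD4 T-like cells had 0.125 ± 0.066 (0.507 times). CD197, the antibody to CCR7, was highest in activated migratory dendritic-like cells at 0.360 ± 0.20 UMIs per cell (SD, n = 9), 1.29 times the isotype mean. Naive CD4 T-like cells had 0.257 ± 0.15 (1.03 times) and follicular-like B cells 0.213 ± 0.15 (0.709 times). CD185, the antibody to CXCR5, stayed under the isotype mean in all 22 classes, at 0.335 to 0.662 times.

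**Figure D2:**
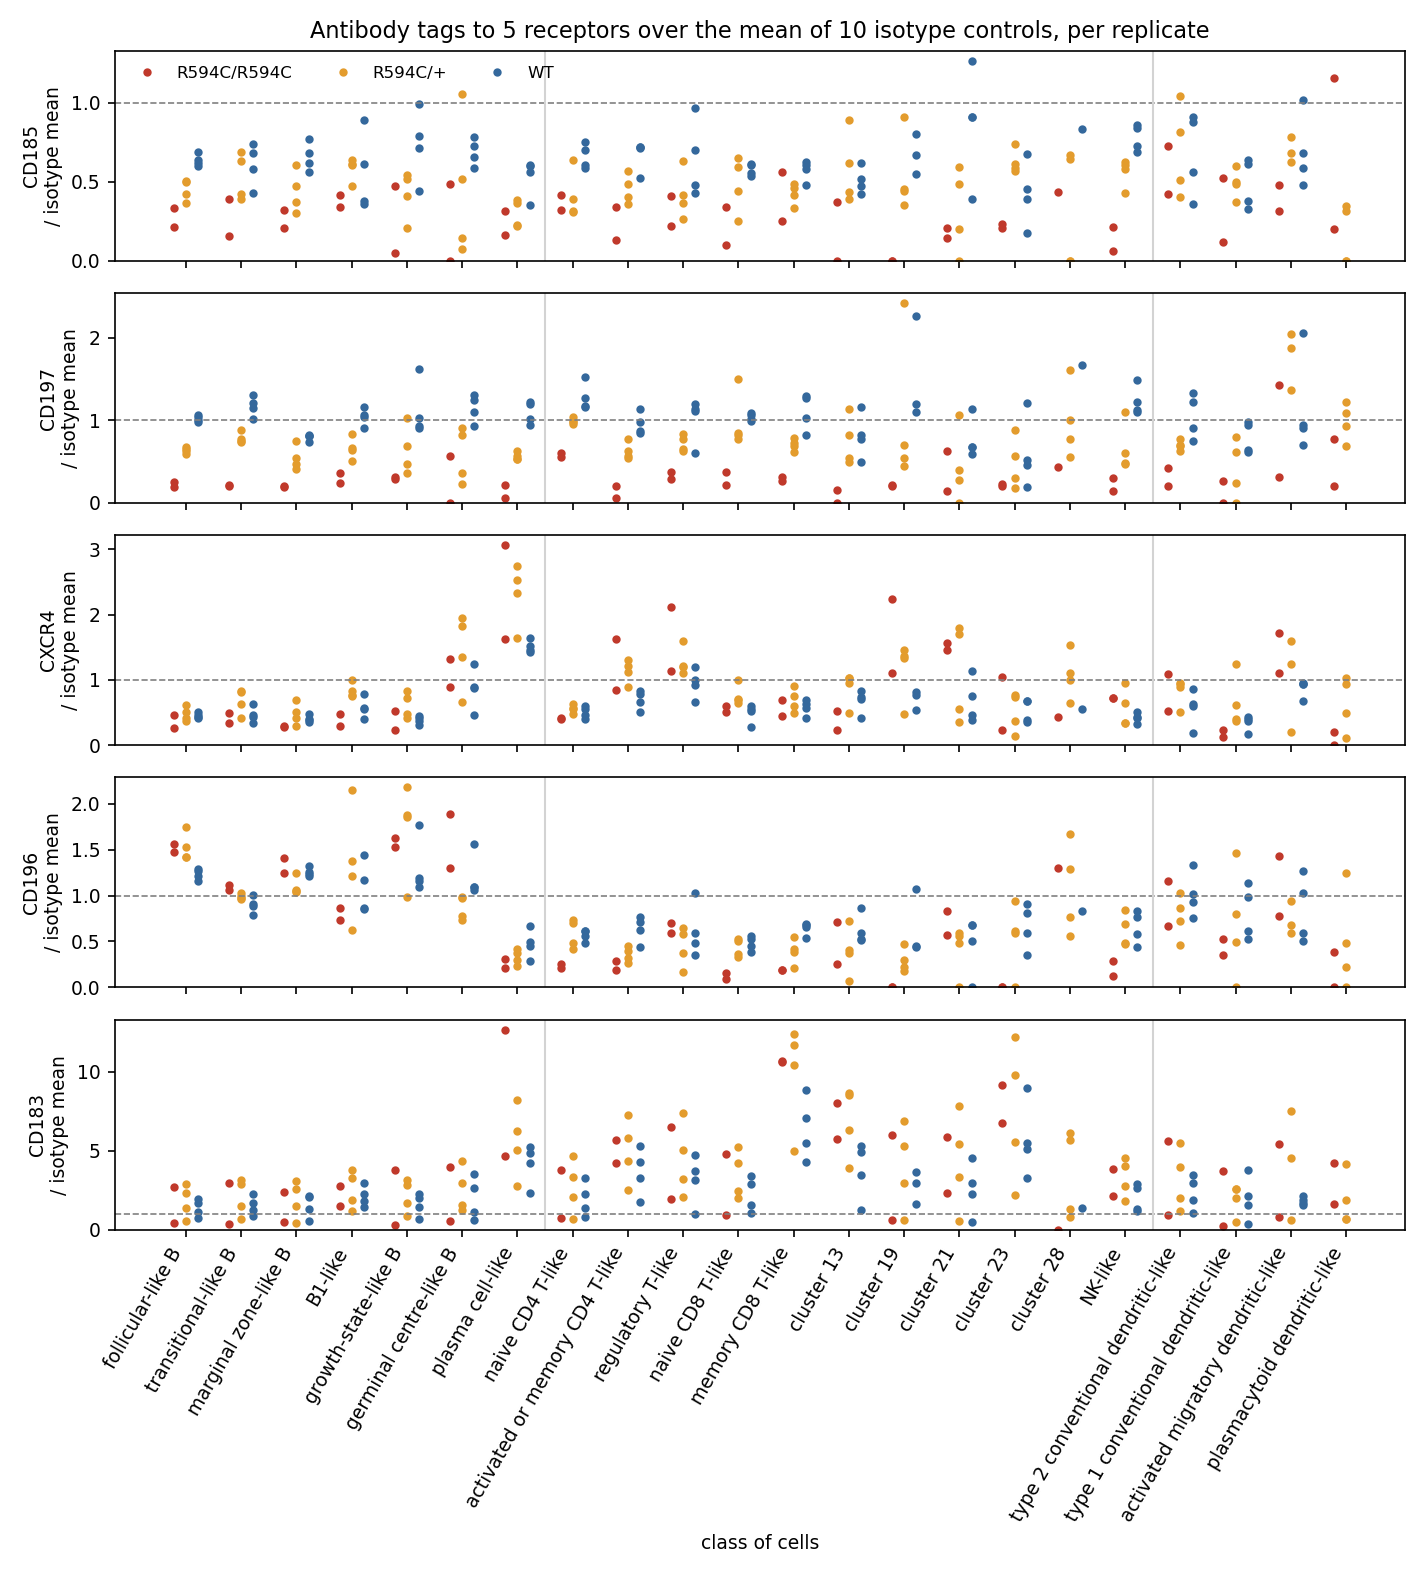
Tag UMIs per cell divided by the mean of 10 isotype controls, for each replicate (points) in the 22 classes, with R594C/R594C, R594C/+ and WT points from left to right and a dashed line at 1. CD183 rises to 8.63 times on average in memory CD8 T-like cells and CXCR4 to 2.00 times in plasma cell-like cells, while CD185 averages under 1 in every class.

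Between classes 22 of 51 tag tests passed, 13 higher and 9 lower, by edgeR on tag UMIs with replicates as blocks, and all 22 kept their direction over the isotype mean. CD183 passed 7 of 12 tests, CXCR4 6 of 10, CD197 5 of 10, CD196 4 of 10 and CD185 0 of 9, with 0 of its 9 under 0.05 unadjusted. Plasma cell-like against follicular-like B cells, where 54.4% of all antibodies passed, CXCR4 (2.42 ± 0.15, adjusted p = 4.3e-16) and CD183 (2.15 ± 0.31) were higher and CD196 (-1.61 ± 0.19) lower. The CXCR4 tag and transcript thus differed in sign, and those of CXCR3 and CCR6 did not. Memory against naive CD8 T-like cells, where 23.6% of antibodies passed, CD183 alone passed, at 1.62 ± 0.14 (adjusted p = 3.2e-26). NK-like against memory CD8 T-like cells, where 48.7% passed, CD183 (-2.03 ± 0.14) and CXCR4 (-0.53 ± 0.14) were lower. The CXCR4 call was lost in 7 of the fits that left out 1 replicate, those without R594C/+ replicate 1, 2 or 3 or any WT replicate, with folds of -0.30 to -0.44 (adjusted p of 0.062 to 0.21). It was also lost in WT replicates alone (adjusted p = 0.14) and scaled to total antibody UMIs (-0.16, adjusted p = 0.44).

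Activated or memory against naive CD4 T-like cells, where 46.7% of antibodies passed, CD183 (0.78 ± 0.16) and CXCR4 (0.55 ± 0.18) were higher and CD197 (-0.97 ± 0.18) lower. Regulatory against naive CD4 T-like cells, where 40.6% passed, the same 3 tags passed, with CXCR4 at 1.20 ± 0.16. There CD183 did not pass without R594C/+ replicate 2 (0.40, adjusted p = 0.084), nor CD197 in WT replicates alone (-0.35, adjusted p = 0.17). Those 3 tags had the sign of their transcripts in both comparisons. Naive CD4 T-like against follicular-like B cells, where 49.1% passed, CD196 was lower at -1.66 ± 0.27, and CD197 (0.53 ± 0.12) and CD183 (0.38 ± 0.12) were higher. CD197 was at 0.27 in WT replicates alone and did not pass (adjusted p = 0.056).

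Within B cells, CD196 was lower in transitional-like than in follicular-like cells (-0.68 ± 0.07, where 24.1% of antibodies passed) and in B1-like than in follicular-like cells (-0.55 ± 0.14, where 40.6% passed), as its transcript was. The B1-like CD196 difference did not pass in WT replicates alone, at -0.35 (adjusted p = 0.13). In that comparison 3 of 5 tags passed, the other 2 being CD183 and CXCR4, both higher. The Cxcr4 transcript was lower there. The CXCR4 call was lost without R594C/+ replicate 1, 2, 3 or 4 (adjusted p = 0.074, 0.12, 0.14 and 0.13) or WT replicate 2 (0.070). It was also lost in WT replicates alone (0.24, adjusted p = 0.23). Marginal zone-like against follicular-like cells, where 46.5% passed, CD197 was lower at -0.24 ± 0.10 (adjusted p = 0.041), and CD196, at -0.16 ± 0.08, did not pass (adjusted p = 0.12). The CD197 call was lost without R594C/+ replicate 1 (adjusted p = 0.063), WT replicate 2 (0.086) or WT replicate 3 (0.12). CD196 passed as lower, at -0.34 to -0.36, without R594C/R594C replicate 1 or 2 (adjusted p = 0.017 and 0.021), R594C/+ replicate 2 (0.027), WT replicate 1 (0.0048) or WT replicate 4 (0.0033), and scaled to total antibody UMIs (-0.27, adjusted p = 0.0070). Activated migratory against type 2 conventional dendritic-like cells, where 31.9% passed, CD197 (1.01 ± 0.33, adjusted p = 0.038) and CXCR4 (0.84 ± 0.29, adjusted p = 0.042) were higher. The CD197 call was lost without R594C/R594C replicate 1 (adjusted p = 0.064), R594C/+ replicate 1, 3 or 4 (0.062, 0.079 and 0.059) or WT replicate 2 (0.064), scaled to total antibody UMIs (0.75, adjusted p = 0.089) and in WT replicates alone (0.24, adjusted p = 0.70). The CXCR4 call was lost without R594C/R594C replicate 2 (adjusted p = 0.10), WT replicate 2 (0.068) or WT replicate 3 (0.074), and scaled to total antibody UMIs (0.59, adjusted p = 0.14). Against the type 2 class, 0 of 1 receptor tags passed in type 1 conventional and 0 of 1 in plasmacytoid dendritic-like cells, where 54.9% and 47.2% of antibodies passed.

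Within a class, tag counts were also set beside the transcript of the same cell, a comparison added after the values were seen. Cells with a UMI of the receptor transcript were compared with cells without one by a two-sided exact sign-flip permutation test over replicates, adjusted over 48 pairs of tag and class, and 9 passed, all higher in cells with the transcript. CD196 passed in all 5 B classes tested. Follicular-like cells with Ccr6, 2791 of them, had 0.460 ± 0.11 CD196 UMIs per cell, and the 11021 without it 0.333 ± 0.088, higher in 10 of 10 replicates (exact test, adjusted p = 0.031). In marginal zone-like cells the levels were 0.560 ± 0.12 with and 0.323 ± 0.13 without Ccr6, higher in 10 of 10. In B1-like cells they were 0.836 ± 0.34 with and 0.247 ± 0.14 without (SD, n = 9, exact test), a ratio of 3.39, while the isotype mean had a ratio of 1.06 between the same cells.

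CD183 passed in 2 of 4 classes. Activated or memory CD4 T-like cells with Cxcr3 had 1.42 ± 0.51 CD183 UMIs per cell, against 1.09 ± 0.46 without it, and regulatory T-like cells 1.53 ± 0.79 against 0.963 ± 0.52. Memory CD8 T-like cells, at 2.08 with and 1.9598 without the transcript, did not pass (exact test, adjusted p = 0.41). CXCR4 passed in 2 of 16 classes, B1-like cells (0.204 with, 0.108 without) and regulatory T-like cells (0.337 with, 0.261 without). CD197 passed in 0 of 14 and CD185 in 0 of 9 by the exact test. In follicular-like cells CD197 was at 0.212 with Ccr7 and 0.222 without it, and CD185 at 0.145 with Cxcr5 and 0.137 without it.

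**Figure D3:**
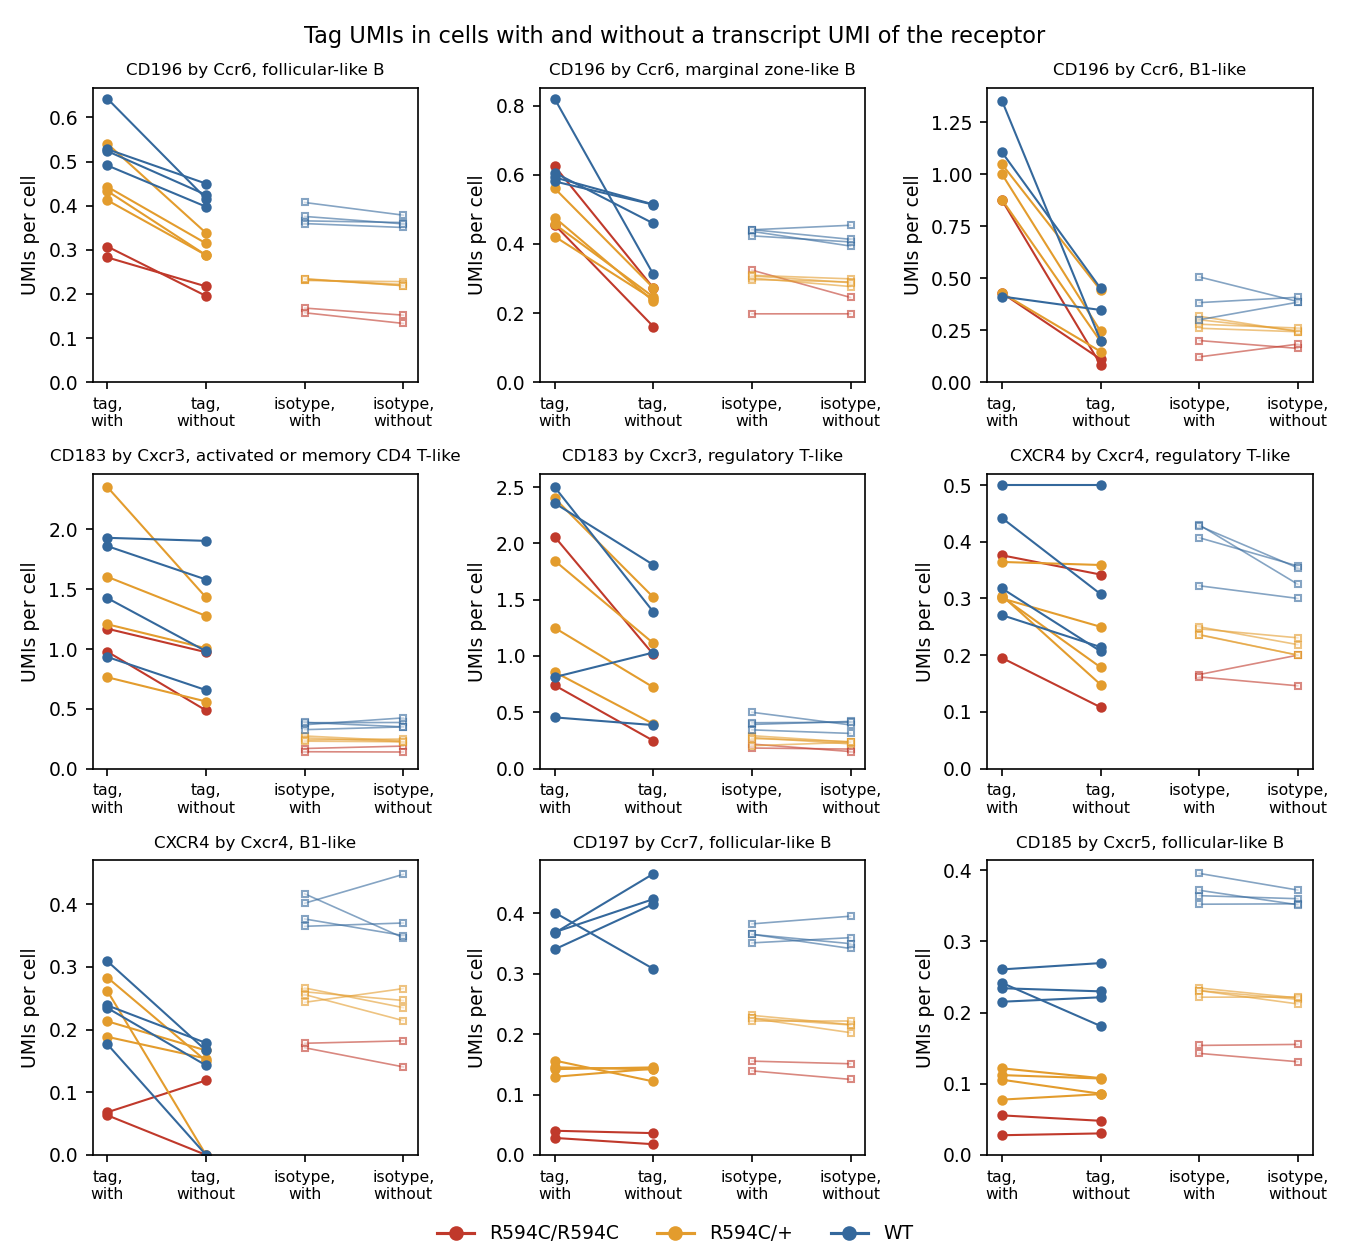
Tag UMIs per cell (filled points) in cells with and without a UMI of the receptor's transcript, and the mean of 10 isotype controls in the same cells (open squares), for 9 pairs of tag and class. Each line joins the values of 1 replicate. CD196 is higher in cells with Ccr6 in 10 of 10 replicates of follicular-like and of marginal zone-like B cells. CD197 and CD185 in follicular-like cells lie at like levels with and without their transcripts.

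The genotypes were compared within each class by edgeR's quasi-likelihood test on summed UMIs, adjusted over all genes of the class. Few receptor transcripts moved. By edgeR 0 of 107 tests passed for R594C/R594C against WT, 15 of them with an unadjusted p under 0.05. R594C/+ against WT, 0 of 107 passed, with 18 unadjusted. R594C/R594C against R594C/+, 2 of 110 passed, with 26 unadjusted. Summed over the classes, 0.101%, 0.188% and 0.141% of all gene tests passed in these 3 comparisons. DESeq2 passed 1 receptor in all, over the 3 comparisons and all classes. The share of all genes with an unadjusted p under 0.05, or with a shared sign over classes, is not given here. Unadjusted counts and shared signs of receptors are therefore descriptions only, and may hold for genes at large.

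Ccr6 in follicular-like B cells was one of the 2 calls. It was at 86.3 and 80.2 CPM in R594C/R594C replicates, at 128, 126, 102 and 107 CPM in R594C/+ replicates, and at 101, 96.0, 110 and 110 CPM in WT replicates. Both R594C/R594C replicates lay under all others. The log2 fold was -0.48 ± 0.09 (95% interval -0.65 to -0.30, adjusted p = 0.0040) for R594C/R594C against R594C/+, where 0.459% of all genes passed. Against WT it was -0.32 ± 0.09 (adjusted p = 0.29), and R594C/+ against WT 0.16 ± 0.08 (adjusted p = 0.70). Without R594C/R594C replicate 2 the fold was -0.43 and did not pass (adjusted p = 0.10), and the 3 follicular-like clusters fitted apart gave -0.42, -0.48 and -0.53, none of which passed (adjusted p = 0.39, 0.068 and 0.073).

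In marginal zone-like B cells Ccr6 was at 107 and 99.4 CPM in R594C/R594C, at 108, 123, 94.7 and 105 CPM in R594C/+, and at 142, 128, 143 and 155 CPM in WT replicates. All WT replicates lay above all others there, yet no contrast passed, with folds of -0.42 ± 0.11 (adjusted p = 0.12) for R594C/R594C and -0.34 ± 0.09 (adjusted p = 0.076) for R594C/+ against WT. The R594C/+ difference from WT was lower in marginal zone-like than in follicular-like cells by -0.52 ± 0.11 (edgeR interaction, adjusted p = 0.0058), 1 of 26 such tests that passed, with 5 under 0.05 unadjusted. For that interaction 0.0293% of all genes passed, and without R594C/+ replicate 1 it did not (-0.47, adjusted p = 0.13). The same interaction for R594C/R594C against WT was -0.10 (adjusted p = 0.96, where 0.0195% of all genes passed), and between naive CD8 and naive CD4 T-like cells no receptor and 0.0% of all genes passed. Transitional-like cells had 37.0 and 23.99 CPM in R594C/R594C, 40.6, 38.1, 43.9 and 31.1 CPM in R594C/+, and 54.8, 45.2, 37.2 and 49.2 CPM in WT replicates, with overlap. Over the 7 classes tested, the Ccr6 fold was below 0 in 6 for R594C/R594C against WT and in 6 against R594C/+, 2 comparisons that share the R594C/R594C replicates.

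Transcripts of other cell types moved with the follicular-like groups. The summed level of the 7 neutrophil markers, none at 0 in all replicates, was 88.7 to 93.4 CPM in R594C/R594C, 168 to 175 CPM in R594C/+ and 30.2 to 49.1 CPM in WT replicates. Of the 6 that were tested, 4 were lower in R594C/R594C than in R594C/+. Their part in the Ccr6 result was not tested.

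Cxcr4 in type 2 conventional dendritic-like cells was the other call. It was at 393 and 489 CPM in R594C/R594C, at 310, 200, 238 and 227 CPM in R594C/+, and at 259, 344, 401 and 383 CPM in WT replicates. The R594C/R594C replicates lay above all R594C/+ replicates and overlapped with WT. The log2 fold was 0.88 ± 0.17 (adjusted p = 0.045) against R594C/+, where 0.0892% of all genes passed, 0.34 ± 0.18 (adjusted p = 0.88) against WT, and -0.54 ± 0.15 (adjusted p = 0.39) for R594C/+ against WT. The call was lost in 6 of the 10 fits that left out 1 replicate, with folds of 0.70 to 1.03. It was lost without R594C/R594C replicate 1 or 2 (adjusted p = 0.28 and 0.73), without R594C/+ replicate 2, 3 or 4 (0.22, 0.17 and 0.27) and without WT replicate 2 (0.11). It was also lost with scored doublets kept (0.75, adjusted p = 0.23), by DESeq2 (0.87, adjusted p = 0.061), with expressed sex as a covariate (0.93, adjusted p = 0.087), with the receptors left in the clustering (0.87, adjusted p = 0.071) and with a replicate block of the hashtag number (0.94, adjusted p = 0.15). Follicular B marker transcripts in these dendritic-like cells summed to 60.5 to 63.1 CPM in R594C/R594C, 58.3 to 213 CPM in R594C/+ and 69.7 to 190 CPM in WT replicates, and their part in the result was not tested.

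**Figure D4:**
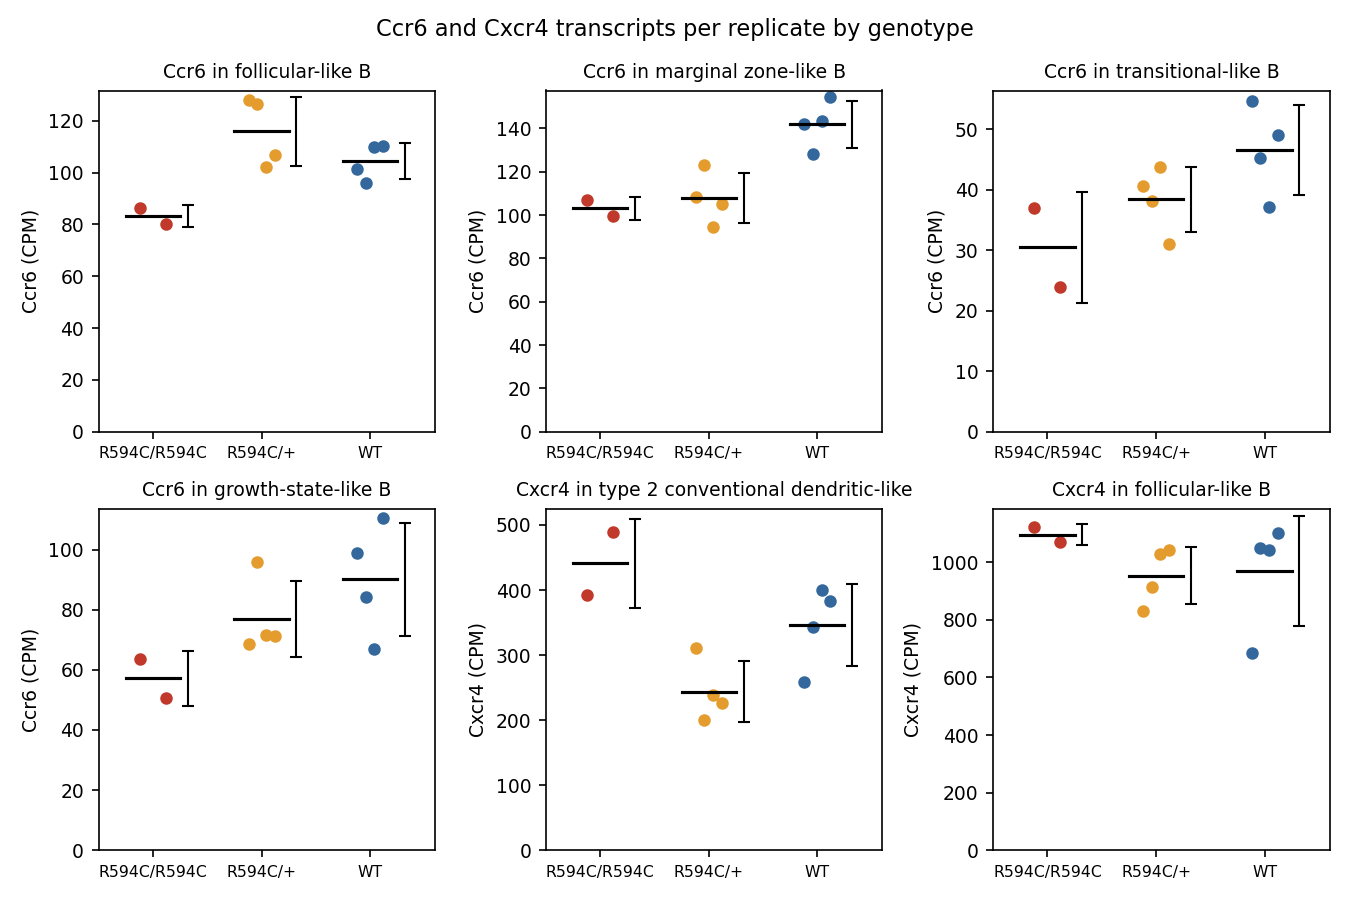
Ccr6 and Cxcr4 in CPM for each replicate (points) of R594C/R594C, R594C/+ and WT, with the mean (line) and SD (bar to the right of each group), in 6 pairs of gene and class. In follicular-like B cells the 2 R594C/R594C replicates, at 86.3 and 80.2 CPM of Ccr6, lie under all others.

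S1pr1 shared a direction over most classes without a call. R594C/R594C against R594C/+, its fold was above 0 in 15 of 17 classes, 9 of them with an unadjusted p under 0.05, 8 higher and 1 lower, and the lowest adjusted p was 0.18. R594C/+ against WT, the fold was below 0 in 15 of 17 classes, 3 of them with an unadjusted p under 0.05. R594C/R594C against WT, it was above 0 in 12 of 17, with 5 under 0.05 unadjusted, 4 higher and 1 lower. These comparisons share replicates, and the counts are not set against those of all genes. In plasma cell-like cells it was at 17.1 and 16.2 CPM in R594C/R594C, at 3.11, 3.02, 7.38 and 6.13 CPM in R594C/+, and at 2.35, 10.8, 11.1 and 3.65 CPM in WT replicates, a fold of 1.62 ± 0.42 against R594C/+. In follicular-like B cells it was at 309 and 310.5 CPM in R594C/R594C, at 279, 284, 270 and 253 CPM in R594C/+, and at 271, 298, 282 and 291 CPM in WT replicates. R594C/R594C lay highest in both classes. In NK-like cells it was at 3.68, 4.04, 35.7 and 9.59 CPM in R594C/+ replicates, against 37.9, 29.3, 25.5 and 47.8 CPM in WT replicates. There 3 of the 4 R594C/+ replicates lay below all WT replicates and R594C/+ replicate 3 lay among them. R594C/+ replicates 1 and 2 had 84 and 70 NK-like cells. Before thinning, a mean of 6.92% of NK-like and 8.76% of plasma cell-like cells had an S1pr1 UMI. The low levels in these 2 classes thus rest on few UMIs.

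The other receptors showed no call. Ccr7 was above 0 in 15 of 19 classes for R594C/R594C against R594C/+ and passed in none, with 4 unadjusted. Cxcr5 was below 0 in 10 of 10 classes for R594C/+ against WT, with 0 under 0.05 unadjusted, and in B1-like cells stood at 0.48 for R594C/R594C against R594C/+ (adjusted p = 0.12). Gpr183 in cluster 13 was at 186 and 49.4 CPM in R594C/R594C and at 335, 395, 418 and 222 CPM in R594C/+ replicates, a fold of -1.26 that did not pass (adjusted p = 0.062). Cxcr3 and Cnr2 passed in none of 10 and 5 classes in any comparison. The fixed lists had few calls by genotype. R594C/+ against WT, 2 of 14 egress regulators were higher in marginal zone-like B cells, Rgs10 (0.43 ± 0.10) and Cd69 (0.33 ± 0.07), where 0.677% of all genes passed. Of 13 in naive CD4 T-like cells, Rgs1 (0.69 ± 0.16) was higher, where 0.199% of all genes passed. Of 12 in NK-like cells, Rgs1 (0.77 ± 0.10) and Rgs2 (0.53 ± 0.10) were higher, where 0.216% passed. In R594C/R594C against R594C/+, Rgs1 was lower in NK-like cells (-0.55 ± 0.12), 1 of 12 egress regulators, where 0.126% of all genes passed. Ccr2 was lower in cluster 13 (-1.63 ± 0.38), 1 of 4 other chemokine receptors, where 0.44% passed.

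**Figure D5:**
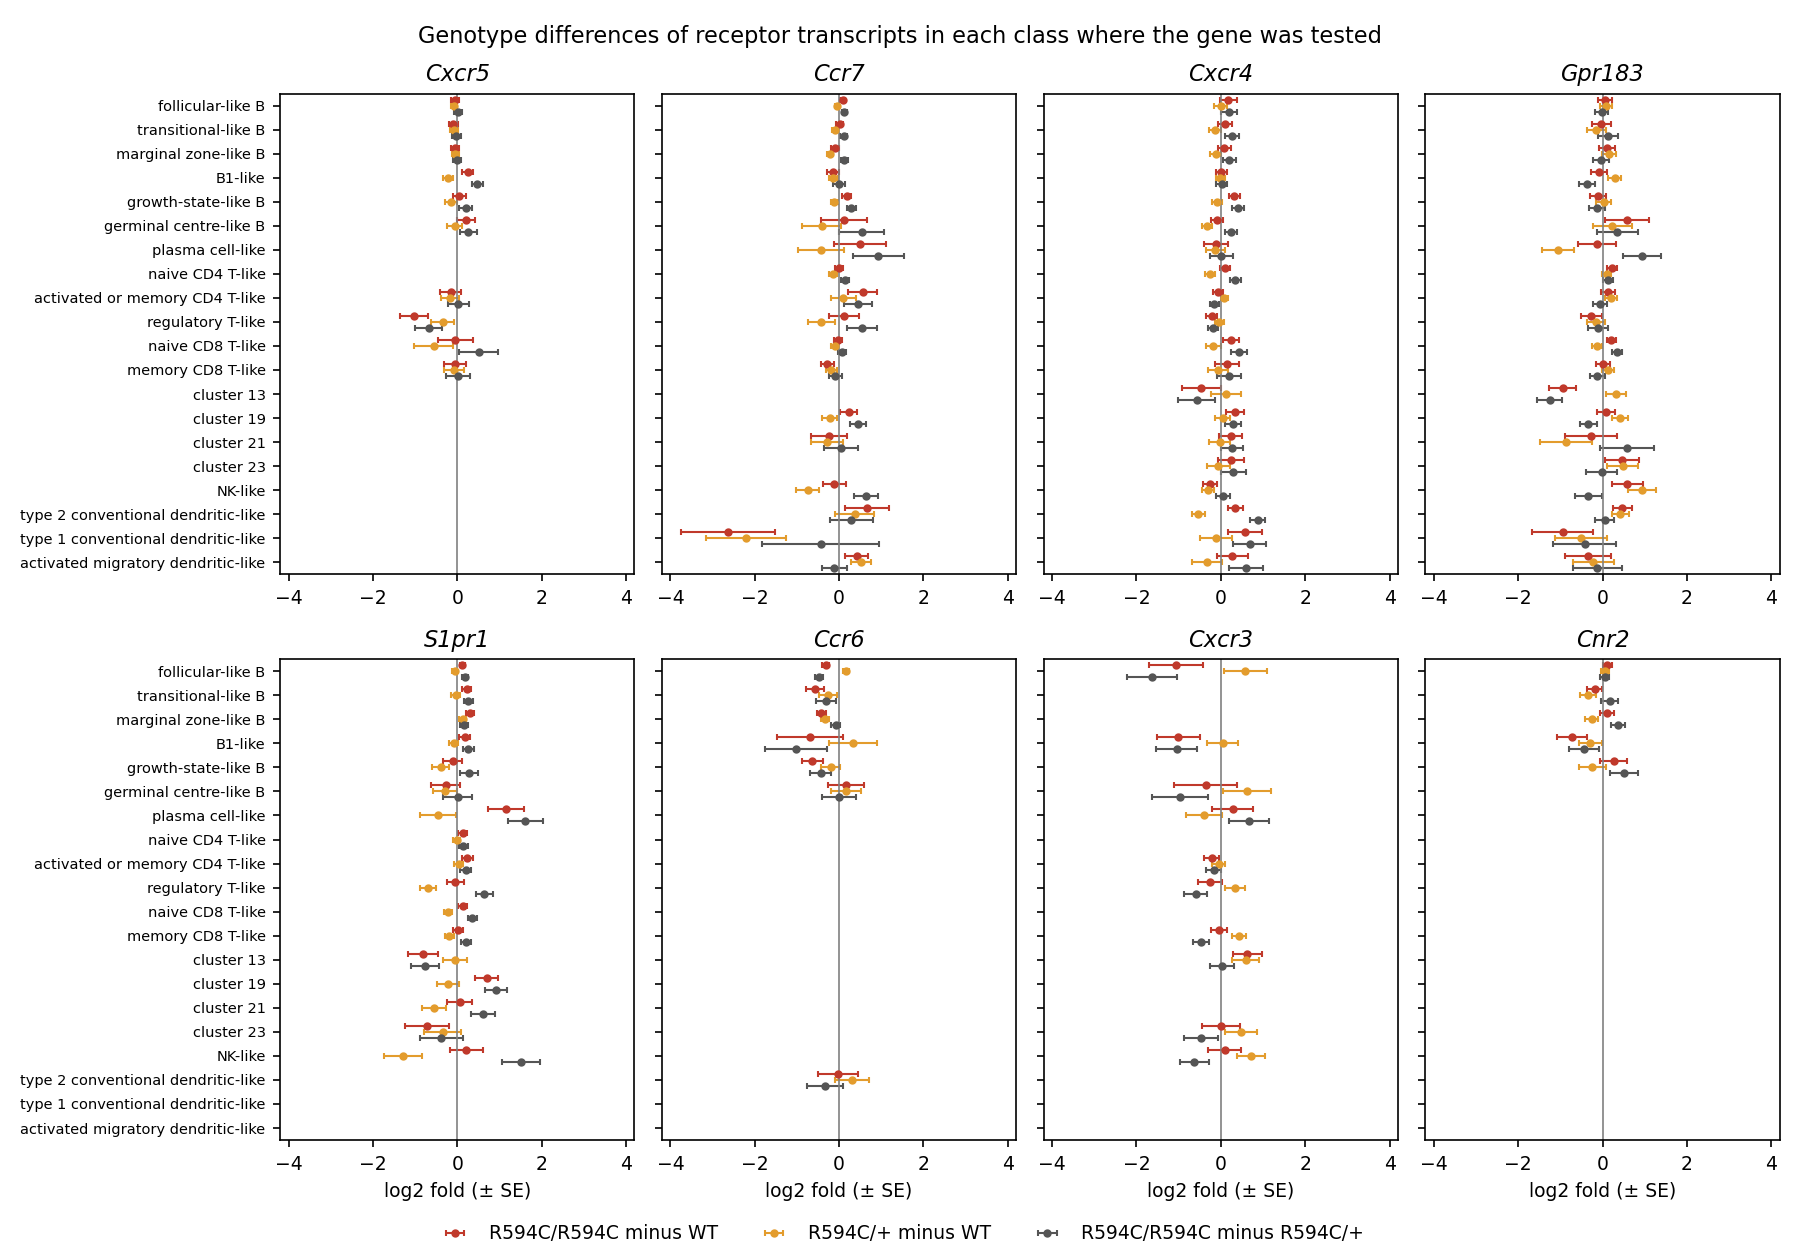
Log2 fold (points) with its standard error (bars) for R594C/R594C minus WT, R594C/+ minus WT and R594C/R594C minus R594C/+, in each class where a receptor transcript was tested. Of these points 2 passed the test, Ccr6 in follicular-like B cells at -0.48 and Cxcr4 in type 2 conventional dendritic-like cells at 0.88, both R594C/R594C minus R594C/+.

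Antibody tags differed far more between genotypes than transcripts did, and so did the whole panel. With 1 antibody library per genotype, 73 of 219 tests of receptor tags passed. These were 32 of 73 for R594C/R594C against WT, 20 of 73 for R594C/+ against WT and 21 of 73 for R594C/R594C against R594C/+. In follicular-like B cells 81.8%, 66.5% and 55.3% of all antibodies passed in these comparisons, and the isotype mean itself was 0.146 UMIs per cell in R594C/R594C, 0.224 in R594C/+ and 0.366 in WT. Summed over the classes, 51.9%, 30.1% and 27.5% of all antibody tests passed. All receptor tag calls but 1 were lower in the genotype named first, where 33.3%, 20.5% and 18.8% of all antibody tests passed as lower. Scaling to total antibody UMIs in place of TMM moved receptor tags in follicular-like cells by a median of -1.46 on the log2 scale for R594C/R594C against WT and raised the calls to 120.

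CD197 was the receptor tag that passed most often, in 13, 12 and 12 of 14 classes. In follicular-like cells it was at 0.0394 and 0.0266 UMIs per cell in R594C/R594C, at 0.143, 0.132, 0.150 and 0.145 in R594C/+, and at 0.386, 0.379, 0.378 and 0.354 in WT replicates, with no overlap. Over the isotype mean this was 0.225 times in R594C/R594C, 0.635 times in R594C/+ and 1.02 times in WT. The same order held in plasma cell-like cells, at 0.139, 0.568 and 1.10 times, and in NK-like cells, at 0.223, 0.663 and 1.24 times, 2 classes with little Ccr7 transcript. The folds for R594C/R594C against WT were -1.94 ± 0.17 in follicular-like, -3.50 ± 0.41 in plasma cell-like and -3.35 ± 0.44 in NK-like cells. In follicular-like cells 81.8% of antibodies passed, in plasma cell-like cells 44.4% and in NK-like cells 57.9%.

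CD185 passed in 10, 5 and 3 of 12 classes, CXCR4 in 2, 0 and 2 of 14, and CD196 in 7, 3 and 4 of 13. Scaled to total antibody UMIs, these became 12, 10 and 8 for CD185, 8, 2 and 8 for CXCR4 and 12, 11 and 8 for CD196. With the hashtag number as a replicate block, CD185 and CXCR4 passed in 5 and 1 classes for R594C/R594C against R594C/+, and CD196 in 5 for R594C/+ against WT. CD183 passed in 0 of 20 classes in each comparison by edgeR, with 0 under 0.05 unadjusted. Its replicates of 1 genotype differed widely by hashtag number, and the median standard error of its folds for R594C/R594C against WT was 0.70. With the replicate block that error was 0.34, and 0 of 20 passed in each comparison, with 1 under 0.05 unadjusted in each. The CD183 fold in follicular-like cells with the block was 0.29 ± 0.24 (adjusted p = 0.24) for R594C/R594C against WT. In follicular-like cells CD196 was at 0.228 and 0.214 UMIs per cell in R594C/R594C, at 0.324, 0.392, 0.339 and 0.314 in R594C/+, and at 0.465, 0.468, 0.447 and 0.419 in WT replicates. The R594C/R594C replicates were lowest per cell and did not overlap with the others. Scaled by TMM the fold against WT was nevertheless higher, at 0.59 ± 0.21 (adjusted p = 0.017), and scaled to total antibody UMIs it was lower, at -0.95 (adjusted p = 8.4e-06). The TMM call was lost without R594C/R594C replicate 2 (adjusted p = 0.16), R594C/+ replicate 4 (0.093), WT replicate 1 (0.27) or WT replicate 4 (0.051), and with scored doublets kept (0.17). Over the isotype mean it was 1.52 times in R594C/R594C, 1.53 times in R594C/+ and 1.23 times in WT. The direction of CD196 in these cells thus depended on the scaling, and CD196 was lower under both in naive CD4 T-like cells (-1.45 ± 0.27 by TMM) and NK-like cells (-2.61 ± 0.50). Those 2 classes had little Ccr6 transcript, with thinned shares of 0.191% and 0.0826%. Their CD196 averaged 0.507 and 0.550 times the isotype mean over all replicates. A difference at that level cannot be read as one of CCR6 protein.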

How the data were processed

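The deposited values are raw counts of UMIs per gene or antibody tag and cell barcode, made by the authors with Cell Ranger 5.0.0 per the file headers. Cell Ranger, STAR, Seurat 3.1.4 and mm10 are named in the submitters' processing notes, with no role or order; how barcodes were filtered is not given in the sources used here. Replicates were assigned from hashtags by HTODemux (Seurat 5.3.0, quantile 0.99). Barcodes with under 200 genes or over 10% mitochondrial UMIs, hashtag doublets and doublets scored against simulated ones were left out; the score removed 9.99% of single-hashtag cells in R594C/R594C, 4.16% in R594C/+ and 3.39% in WT. Cells were clustered on 30 components of 2000 variable genes (20 neighbours, Leiden resolution 1.5; igraph 0.11.9, leidenalg 0.10.2, scikit-learn 1.9.0), without the receptors and without 996 receptor-segment and sex-linked genes.

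UMIs were summed per replicate and class with at least 10 cells and tested with edgeR 4.0.16 (limma 3.58.1, R 4.3.3; TMM, quasi-likelihood), Benjamini-Hochberg adjusted over all features at 0.05. Class contrasts had the replicate as a block. Genotype contrasts had none; over 170 antibodies in follicular-like cells, same-numbered samples deviated together (r of 0.351 to 0.777 in 8 of 8 pairs), so tags pair by hashtag number, a check made after the values were seen. DESeq2 1.42.0, other scalings, filters, hashtag and doublet rules and leaving out each replicate were alternatives. The edgeR fits on transcripts were tested on simulated counts. These were R594C/R594C against WT in follicular-like, marginal zone-like and type 2 conventional dendritic-like cells, and the class contrast with replicates as blocks. The counts for the class contrast were simulated from follicular-like cells alone. All simulations used a fixed spread and no replicate effect, and their outcome is not given here. Levels used Python 3.11.15, numpy 2.4.6, scipy 1.17.1 and pandas 2.3.3, with a pseudocount of 1 on the log scale, and figures matplotlib 3.10.9. Thinning to 1500 UMIs left out 738 R594C/R594C, 728 R594C/+ and 635 WT cells. Genes were named by a rule: the 8 receptors, the 4 genes of each fixed list with the largest fold among those that passed, of which examples are printed and some are not reported here, and the 3 genes most like each receptor at 20 CPM or more. The members and lists were chosen with earlier results of these data known. Gene positions come from RefSeq on GRCm38. UMI depth limits precision, and a p-value here speaks only of the scatter among hashtag replicates, which may be technical.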

Additional observations from a re-analysis of the deposited data

Results flagged for a closer look

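In 55 groups of 4 replicates examined for a value far from the rest, 3 held one, and chance flags about 1 in 20 groups. Cxcr4 in follicular-like B cells was at 685 CPM in WT replicate 1, far below the other WT replicates at 1042 to 1102 CPM. Cxcr4 in activated or memory CD4 T-like cells was at 769 CPM in R594C/+ replicate 2, below the others at 879 to 891 CPM. Ccr6 in growth-state-like B cells was at 95.9 CPM in R594C/+ replicate 2, above the others at 68.6 to 71.7 CPM.

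The Ccr6 difference between R594C/+ and WT differed between marginal zone-like and follicular-like B cells by -0.52 on the log2 scale, by edgeR's test of the interaction (adjusted p = 0.0058).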

How the results depend on the processing

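Receptor transcripts by genotype had 2 calls, 0 to 4 when 1 replicate was left out, and 1 by DESeq2, 1 with scored doublets kept, 6 with no filter on low counts and 6 with a replicate block of the hashtag number. In the transcripts pairing by number was not shown: correlations of same-numbered deviations in follicular-like cells ran from -0.079 to 0.356. The highest was between replicate 2 of R594C/R594C and replicate 2 of WT. Receptor levels between classes had 61 calls, 61 to 63 without 1 replicate. Tags by genotype had 73 calls, 58 to 84 without 1 replicate 120 when scaled to total antibody UMIs and 77 with the replicate block, which moved no count but those given per tag above by over 1.5 times. Tags between classes had 22 calls, 17 to 24 without 1 replicate. The genotype effect between classes had 1 call, 0 to 1 without 1 replicate. The order of classes had 18 differing neighbours on CPM and 0 on thinned shares, where the least p of the exact test did not pass once adjusted.

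Scaled to total antibody UMIs, these reversed: CD196 in the follicular-like class (-0.95 with R594C/R594C set against WT, -0.57 with R594C/R594C set against R594C/+, and -0.39 with R594C/+ set against WT), CD196 in marginal zone-like cells (-0.82, R594C/R594C minus WT), CXCR4 in naive CD4 T-like cells (-0.61, R594C/+ minus WT) and CD183 between transitional-like and follicular-like B cells (0.21). CD185 between naive CD4 T-like and follicular-like B cells ran from -0.0989 to 0.48 when 1 replicate was left out, and reversed to 0.48 without R594C/R594C replicate 2. The cause was not tested for these. The growth-state-like class could not be fitted with the receptors left in the clustering. Fewer UMIs in dendritic classes limit those tests.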

Other observations

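The CD183 tag, the antibody to CXCR3, spread widely between replicates of 1 genotype. In follicular-like B cells it was at 0.412 and 0.0595 UMIs per cell in R594C/R594C, at 0.534, 0.126, 0.302 and 0.639 in R594C/+, and at 0.650, 0.275, 0.399 and 0.713 in WT replicates. Replicate 2 held the lowest value in 20 of 21 classes in R594C/R594C, in 20 of 21 in R594C/+ and in 16 of 19 in WT. Plasma cell-like cells ran the other way in R594C/R594C, with 0.938 in replicate 1 and 2.17 in replicate 2. The R594C/R594C order was not particular to CD183. There replicate 2 was also the lower one for CD185 in 20 of 21 classes, for CD197 and CXCR4 in 16 each and for CD196 in 15.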
